A study of Mus musculus with 4 samples.

Results

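The genes described here are 8 members of a set named for tuft cells and for eicosanoid synthesis, taken from a table of 50600 mouse genes by symbol. They are Dclk1, Trpm5, Avil and Gfi1b, and the eicosanoid genes Alox5ap, Alox5, Hpgds and Ptgs1, each with 1 row in the table. RNA was sequenced from primary epithelial cells of the colon of C57BL/6 mice, in 2 libraries of Mettl14 knockout (KO) cells and 2 of wild-type (WT) cells. The Mettl14 protein is part of the methyltransferase that places N6-methyladenosine (m6A) on mRNA. The labels used here do not give the allele, what drives the deletion, the age of the animals or whether a library pooled animals. All 4 titles end in the same code, which the labels do not explain and which was not used. Each genotype had 1 library with Y-linked transcripts and 1 with Xist, so KO replicate 2 and WT replicate 1 were male, and KO replicate 1 and WT replicate 2 female.

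Tuft cells are rare chemosensory cells of the gut lining. They carry a taste-like signalling chain that ends in the channel Trpm5, and they release acetylcholine, the cytokine IL-25 and lipid mediators. Eicosanoids are such mediators, made from arachidonic acid along a cyclooxygenase route to prostaglandins and a lipoxygenase route to leukotrienes. Enzymes of both routes are known from tuft cells and also from mast cells, macrophages and other leukocytes, so the name of the set fits more than 1 cell type.

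Library totals were 22730188 (KO replicate 1), 22780451 (KO replicate 2), 22136440 (WT replicate 1) and 24991060 (WT replicate 2) counts. Mitochondrial transcripts made up 32.7% and 28.6% of these in KO and 33.8% and 28.8% in WT. Their chromosome 1 copies made up a further 11.2% and 9.97% in KO and 11.1% and 9.52% in WT. Levels are given as raw counts and as CPM (library-scaled counts) after trimmed mean of M-values (TMM) scaling. The test was edgeR's quasi-likelihood test with Benjamini-Hochberg adjustment over 14861 genes, and a gene is called at an adjusted p under 0.05. The smallest edgeR adjusted p of any gene was 0.0434, so all calls lay close to the threshold, and 2682 genes were under 0.1. A count of 0 allows up to 3 counts, or 0.117 to 0.145 CPM depending on the library. Mettl14 itself was at 3.99 and 3.94 CPM in KO and 11.7 and 8.67 CPM in WT (log2 fold change -1.36, edgeR adjusted p = 0.0504). Its deleted exons are not named in the labels, so other exons can still give reads. Fibroblast markers summed to 103 and 610 CPM in KO replicates 1 and 2, against 77.9 and 106 CPM in WT. Erythroid markers summed to 1353 and 6682 CPM in KO, against 1977 and 2737 CPM in WT. KO replicate 2 was thus the highest library in both, and values without it are given below where they matter.

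Epithelial markers were abundant in every library. Epcam had 23908 and 26457 counts in KO and 27619 and 36150 in WT. The 8 epithelial markers summed to 6614 and 5947.5 CPM in KO and 6998 and 8866 CPM in WT. Of these edgeR called 0, with 3 lower and 0 higher at an unadjusted p under 0.05 (30.5% of all tested genes in either direction). The genes that define tuft cells were near the limit of detection. Pou2f3, the transcription factor that tuft cells require, had 4 and 0 counts in KO and 1 and 0 in WT. Il25 had 0 and 0 counts in KO and 1 and 0 in WT, and Chat, the acetylcholine synthase gene, had 0 in every library. Of 25 other tuft cell genes, 10 had fewer than 10 counts over the 4 libraries together. The genes are therefore treated as tuft cell-associated and eicosanoid genes, not as a readout of tuft cells. In bulk libraries, fewer cells of a type and less RNA per cell cannot be told apart.

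Measured per kilobase of exon, Alox5ap, Hpgds and Avil were the main members in both genotypes. In KO the mean levels were 4.92 CPM per kb for Alox5ap, 1.58 for Hpgds, 1.31 for Avil, 0.897 for Gfi1b, 0.722 for Ptgs1, 0.391 for Alox5, 0.0698 for Trpm5 and 0.0575 for Dclk1. In WT they were 2.51 CPM per kb for Hpgds, 2.27 for Alox5ap, 1.33 for Avil, 0.363 for Ptgs1, 0.18 for Alox5, 0.092 for Gfi1b, 0.0588 for Trpm5 and 0.0346 for Dclk1. Gfi1b stood above Ptgs1 and Alox5 in KO and below both in WT. Neighbours in this order whose libraries overlapped were Hpgds and Avil, Gfi1b and Ptgs1, and Trpm5 and Dclk1 in KO. In WT they were Hpgds and Alox5ap, Alox5 and Gfi1b, and Gfi1b and Trpm5. Lengths are the bases covered by any annotated exon, so a gene read mostly as a short transcript, as may occur at Dclk1, is understated.

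**Figure D1:**
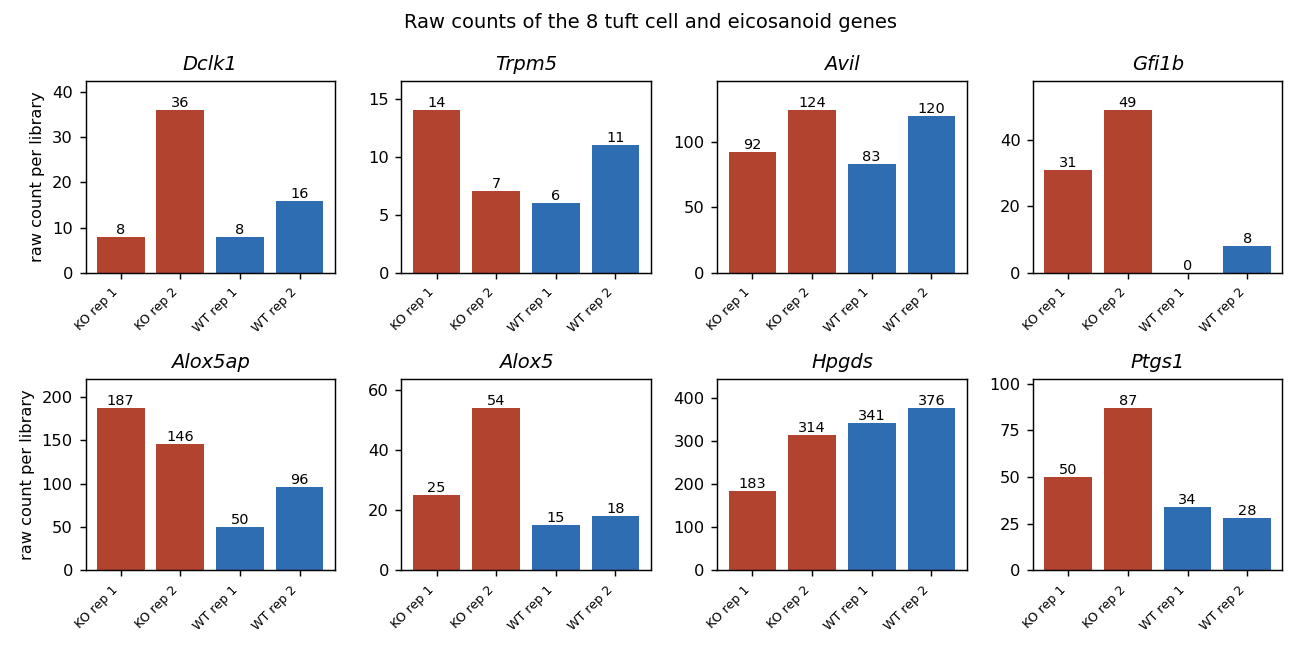
Raw counts of each of the 8 genes in the 2 KO libraries (red) and the 2 WT libraries (blue), 1 bar per library with its count above it and a separate y axis for each gene. Gfi1b is at 31 and 49 in KO against 0 and 8 in WT, and Hpgds is the one gene with both KO libraries below both WT libraries.

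None of the 8 members was called by edgeR, where 3.61% of all tested genes were (1.72% higher and 1.90% lower in KO). DESeq2 and limma-voom also called 0 of the 8, where they called 1927 and 582 of the 14861 genes. DESeq2 gave Dclk1 and Trpm5 no adjusted p, so neither could be called, and its adjusted p for Gfi1b was 0.0519. At an unadjusted edgeR p under 0.05 there were 3, namely Gfi1b and Alox5ap higher in KO and Hpgds lower. The share of all tested genes at that level was 30.5% (14.8% higher and 15.7% lower). In 5 of 8 members the CPM of the genotypes did not overlap, against 63.3% of all tested genes. Both counts are close to the background and set the members apart from other genes in neither respect. All 8 passed the filter on low counts. Their median log2 fold change was 0.86, against -0.01 over all tested genes.

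Dclk1, a microtubule-associated kinase used as a tuft cell marker, had 8 and 36 counts in KO and 8 and 16 in WT. These are 0.879 ± 0.741 CPM in KO and 0.529 ± 0.204 CPM in WT (SD, n = 2 each). The highest and the lowest CPM both occurred in KO, and the genotypes overlapped. The log2 fold change was 0.73 (SE 0.79, edgeR adjusted p = 0.567), and without KO replicate 2, which had the most fibroblast RNA, it was -0.56. Dclk1 (ENSMUSG00000027797) lies on chromosome 3 from 55242364 to 55539068 in GRCm38.

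Trpm5, the calcium-activated cation channel that ends the taste signalling chain, had 14 and 7 counts in KO and 6 and 11 in WT. Its level was 0.447 ± 0.246 CPM in KO and 0.376 ± 0.123 CPM in WT (SD, n = 2 each). At 38 counts in all it was the least counted member. The counts interleaved, and in CPM both WT libraries lay between the 2 KO libraries. The log2 fold change was 0.22 (SE 0.66, edgeR adjusted p = 0.841). It was -0.47 without KO replicate 1 and -0.07 without WT replicate 1. Trpm5 (ENSMUSG00000009246) lies on chromosome 7 from 143069153 to 143094642, and 3.44% of its exon bases are shared with Tssc4 on the other strand. Tssc4 had 347 and 374 counts in KO and 154 and 212 in WT. Whether the counting used strand is not stated, and the part of Tssc4 reads in the Trpm5 counts was not tested.

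Avil encodes advillin, an actin-binding protein of the villin family that is prominent in tuft cells. It had 92 and 124 counts in KO and 83 and 120 in WT, or 4.46 ± 0.532 CPM in KO and 4.52 ± 0.743 CPM in WT (SD, n = 2 each). The counts interleaved, and in CPM both KO libraries lay between the 2 WT libraries. The log2 fold change was -0.02 (SE 0.24, edgeR adjusted p = 0.959). Its sign followed the scaling, at 0.15 with library size only and 0.05 with upper quartile factors. Avil (ENSMUSG00000025432) lies on chromosome 10 from 127000709 to 127020994 and shares 4.86% of its exon bases with Tsfm on the other strand. Tsfm had 286 and 317 counts in KO and 136 and 192 in WT, and no source used here says whether the counting used strand.

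Gfi1b encodes a zinc-finger transcriptional repressor that is known from red cell and platelet precursors and is also a tuft cell marker. It had 31 and 49 counts in KO, against 0 and 8 in WT. The genotypes did not overlap, and Gfi1b had the largest fitted fold difference of the 8. Its level was 1.64 ± 0.378 CPM in KO and 0.168 ± 0.238 CPM in WT (SD, n = 2 each), a fitted 9.12-fold difference (log2 fold change 3.19, SE 1.05). The unadjusted p was 0.032 and the edgeR adjusted p 0.132, so it was not called. The log2 fold change was 2.26 without WT replicate 1, 3.40 without KO replicate 1 and 2.95 without KO replicate 2. Without WT replicate 2 the single WT library left had a count of 0. Gfi1b was then called (edgeR adjusted p = 0.024), with KO at least 11.4-fold higher than the limit of 3 counts in WT replicate 1. Gfi1b (ENSMUSG00000026815) lies on chromosome 2 from 28609450 to 28621982.

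Markers of red cells and platelets were measured beside Gfi1b. The summed level of 6 erythroid markers was highest in KO replicate 2, where Gfi1b was highest too (1.91 CPM), and lowest in KO replicate 1, where Gfi1b was at 1.37 CPM. The genotypes overlapped in each of the 6, and edgeR called 0 of them, with 0 at an unadjusted p under 0.05. The 8 megakaryocyte and platelet markers summed to 6.25 and 5.85 CPM in KO and 4.91 and 5.01 CPM in WT, with Treml1 at 0 in every library. The 2 most abundant lay on opposite sides of WT. The integrin gene Itga2b had 42 and 41 counts in KO and 56 and 62 in WT, and the platelet chemokine gene Pf4 had 57 and 57 in KO and 9 and 33 in WT. Of the 8, 4 were tested and 0 called by edgeR, with 0 at an unadjusted p under 0.05. The part of these cells in the Gfi1b counts was not tested.

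Alox5ap encodes the protein that presents arachidonic acid to 5-lipoxygenase, and stands at the head of the leukotriene route. It had 187 and 146 counts in KO, against 50 and 96 in WT. Both KO libraries exceeded both WT libraries. The level was 6.99 ± 1.84 CPM in KO and 3.22 ± 1.15 CPM in WT (SD, n = 2 each), a 2.16-fold difference (log2 fold change 1.11, SE 0.35). The unadjusted p was 0.0279 and the edgeR adjusted p 0.124. With sex as a covariate it was called (log2 fold change 1.13, edgeR adjusted p = 0.0464). In that fit 9.48% of all tested genes were called. Without a library in turn the log2 fold change was 0.78 to 1.57. Alox5ap (ENSMUSG00000060063) lies on chromosome 5 from 149264767 to 149288153, and its antisense neighbour Gm19719, which shares 13.3% of its exon bases, had no more than 4 counts in any library.

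Alox5, the 5-lipoxygenase itself, had 25 and 54 counts in KO and 15 and 18 in WT. The genotypes did not overlap, though KO replicate 1 stood closer to WT than to KO replicate 2. The level was 1.61 ± 0.704 CPM in KO and 0.74 ± 0.0246 CPM in WT (SD, n = 2 each; log2 fold change 1.12, SE 0.48, edgeR adjusted p = 0.198). Without KO replicate 2 the log2 fold change was 0.60. Alox5 (ENSMUSG00000025701) lies on chromosome 6 from 116410077 to 116461178.

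Ptgs1 encodes cyclooxygenase-1, the constitutive enzyme that opens the prostaglandin route. It had 50 and 87 counts in KO, against 34 and 28 in WT. Both KO libraries were above both WT libraries, and KO replicate 2 was again the highest. The level was 2.80 ± 0.83 CPM in KO and 1.41 ± 0.325 CPM in WT (SD, n = 2 each; log2 fold change 0.996, SE 0.39, edgeR adjusted p = 0.169). Without KO replicate 2 the log2 fold change was 0.68. Ptgs1 (ENSMUSG00000047250) lies on chromosome 2 from 36230426 to 36252272.

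Hpgds encodes haematopoietic prostaglandin D synthase, which turns the cyclooxygenase product into prostaglandin D2. It had 183 and 314 counts in KO, against 341 and 376 in WT. It was the most counted member in 3 libraries, and in KO replicate 1 it stood just below Alox5ap. Both KO libraries were below both WT libraries, the reverse of the other 3 eicosanoid members. The level was 10.2 ± 2.91 CPM in KO and 16.1 ± 0.428 CPM in WT (SD, n = 2 each), a ratio of 0.632 (log2 fold change -0.66, SE 0.23). The unadjusted p was 0.0359 and the edgeR adjusted p 0.139. The log2 fold change was -0.41 without KO replicate 1 and -0.97 without KO replicate 2. Hpgds (ENSMUSG00000029919) lies on chromosome 6 from 65117293 to 65144908, on the minus strand.

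Promoter windows, 250 bases before to 50 after each gene's start in RefSeq (GRCm38.p6), matched 7 of the 8 members, all but Alox5ap, with 2 windows for Dclk1. They were searched for the octamer ATGCAAAT, the letters that POU-family factors such as POU2F3 are known to bind, on both strands (ATTTGCAT). Of the 8 windows 1 held it, that of Hpgds, against 1.74% of all 32851 windows. This window is printed because it held a match, with the octamer in capitals. It runs 5′ to 3′ in the sense of the gene (chr6:65144681-65144980, minus strand). The octamer starts 174 bases before the RefSeq start of the gene. That start, 65144730, lies 178 bases inside the GENCODE locus given above, so by GENCODE the octamer falls 4 bases inside the gene. A match of letters is not a binding site, and no match in the other windows says only that these letters are absent there.
Hpgds promoter: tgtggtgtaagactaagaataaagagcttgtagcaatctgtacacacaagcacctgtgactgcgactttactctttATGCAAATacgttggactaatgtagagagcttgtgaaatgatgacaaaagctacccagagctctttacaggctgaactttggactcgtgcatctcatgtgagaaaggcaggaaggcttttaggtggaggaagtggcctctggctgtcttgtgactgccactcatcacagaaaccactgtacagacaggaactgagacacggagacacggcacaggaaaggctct

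**Figure D2:**
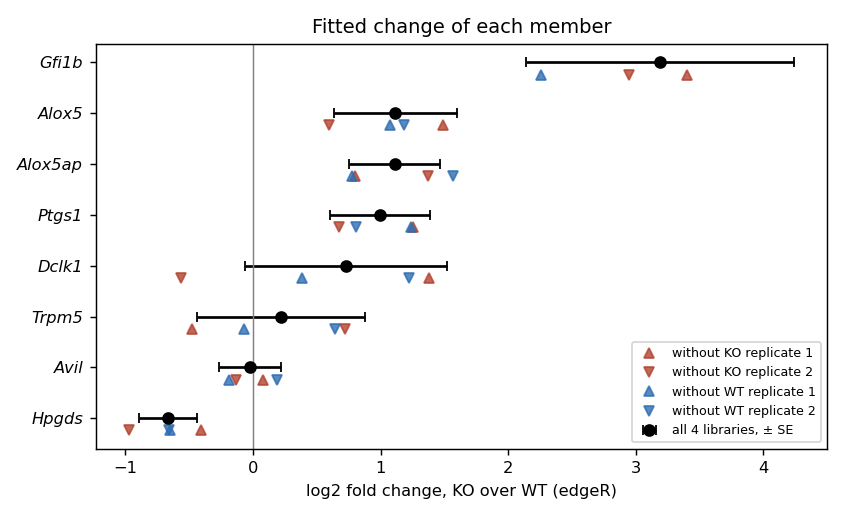
Log2 fold change of each member, KO over WT, from edgeR (x axis), with 1 row per gene; black points with bars are the fit of all 4 libraries ± SE, and triangles leave out 1 library (the Gfi1b value without WT replicate 2, where WT was at 0, is not drawn). Gfi1b, Alox5, Alox5ap and Ptgs1 lie right of 0 in every fit drawn and Hpgds left of it, while Dclk1, Trpm5 and Avil cross 0.

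The members' makeup differed more than their sum. Together they had 590 and 817 counts in KO and 537 and 673 in WT, or 26.2 and 31.8 CPM in KO and 25.9 and 28.3 CPM in WT. Hpgds made up 31.0% and 38.4% of these counts in KO, against 63.5% and 55.9% in WT. The other 7 genes summed to 18.0 and 19.6 CPM in KO and 9.44 and 12.5 CPM in WT. For every 100 Hpgds counts there were 102 and 46.5 Alox5ap counts in KO and 14.7 and 25.5 in WT. These sums are a description and were not tested.

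Within each sex, KO over WT gave log2 ratios (CPM plus 0.5) of 1.16 in females and 2.27 in males for Gfi1b. They were 0.95 and 1.09 for Alox5ap, 0.36 and 1.09 for Alox5, 0.69 and 0.86 for Ptgs1, and -0.92 and -0.41 for Hpgds. Each rests on 1 library of each genotype, so these values carry no test.

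Among 25 other tuft cell genes, 11 passed the filter. Of these 1 rose and 0 fell, and 6 were higher and 1 lower at an unadjusted p under 0.05. Over all tested genes the edgeR shares were 3.61% called and 30.5% at that unadjusted p. Their median log2 fold change was 0.82. The 1 called gene, Itpr2, encodes a calcium release channel of the endoplasmic reticulum and had 718 and 857 counts in KO against 435 and 492 in WT (log2 fold change 0.65, SE 0.10, edgeR adjusted p = 0.0493). Like every called gene, it lay just inside the threshold. It was not called with RLE factors, with limma-voom, without the robust option or without either KO library, and is expressed in many cell types.

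The other tested genes of this list were not called in that fit. DESeq2 called 6 of the list (5 higher, 1 lower), where it called 1927 of all 14861 genes. With sex as a covariate edgeR called 5 (4 higher, 1 lower), where 9.48% of all tested genes were called. Spib, an Ets-family transcription factor of tuft, M and B cells, had 1967 and 2676 counts in KO, against 58 and 374 in WT (log2 fold change 3.36, SE 0.79, edgeR adjusted p = 0.0774). DESeq2 called it, as did edgeR without WT replicate 1 or without WT replicate 2. The 8 lymphocyte markers summed to 52.7 and 35.5 CPM in KO and 32.6 and 52.8 CPM in WT, with Cd79b, a B cell gene, at 191 and 102 counts in KO and 56 and 215 in WT. Their part in the Spib counts was not tested. Kctd12, an auxiliary subunit of GABA-B receptors, had 3293 and 3991 counts in KO, against 1011 and 1712 in WT (log2 fold change 1.32, edgeR adjusted p = 0.0505). It was called in 9 of 15 alternatives.

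Plcg2, a phospholipase C of haematopoietic and tuft cells, had 428 and 430 counts in KO, against 128 and 269 in WT (log2 fold change 1.03, edgeR adjusted p = 0.118). Inpp5d, a lipid phosphatase of leukocytes, had 557 and 554 counts in KO, against 233 and 357 in WT (log2 fold change 0.82, edgeR adjusted p = 0.0722). In both genes KO was above WT in every library. Il17rb, the subunit of the IL-25 receptor, went the other way, with 38 and 40 counts in KO against 84 and 158 in WT (log2 fold change -1.72, SE 0.34, edgeR adjusted p = 0.0617). It was called by DESeq2, and by edgeR with no filter, with sex as a covariate or when WT replicate 1 was left out.

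**Figure D3:**
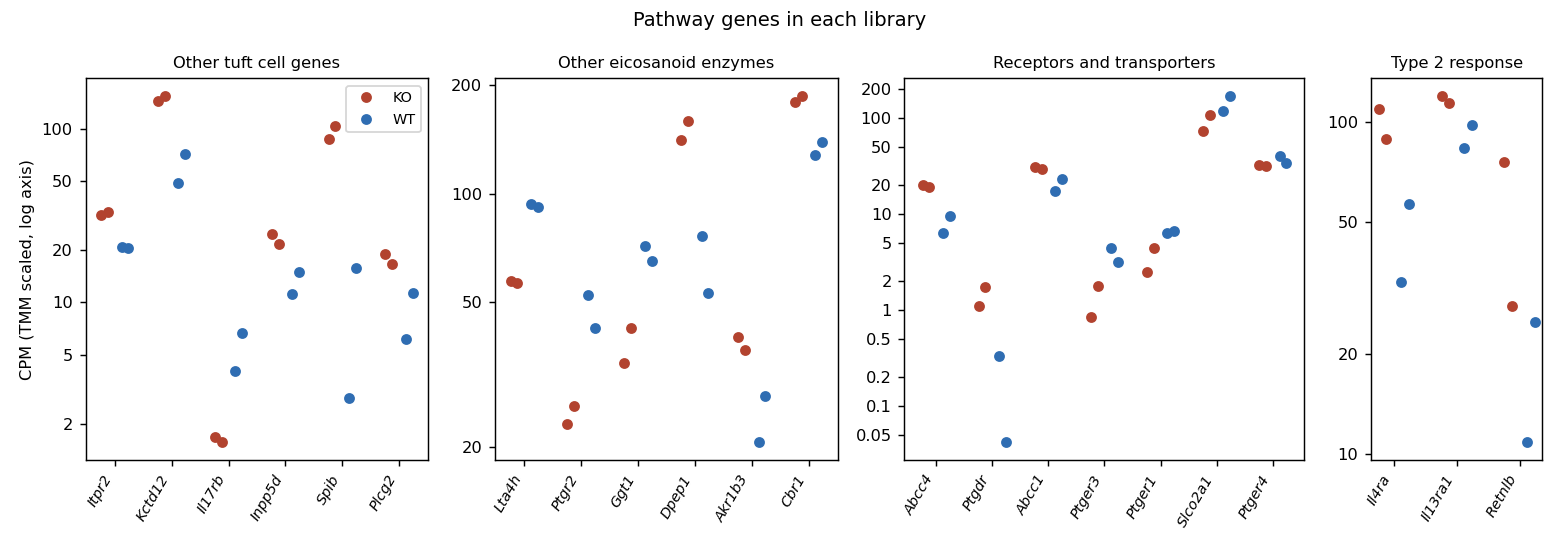
CPM on a log axis of the genes named from the 4 pathway lists, 1 point per library, with KO (red) left of WT (blue) for each gene. Lta4h, Ptgr2 and Ggt1 lie lower in both KO libraries, while Dpep1, Abcc4 and Spib lie higher in both.

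Of 24 other eicosanoid enzymes, 18 passed the filter, 0 rose and 2 fell, where 3.61% of all tested genes were called. The median log2 fold change was 0.36. The 2 that fell act on different routes. Lta4h, the hydrolase that makes leukotriene B4, had 1292 and 1448 counts in KO against 1947 and 2183 in WT (log2 fold change -0.71, SE 0.10, edgeR adjusted p = 0.0443). Ptgr2, a reductase that inactivates prostaglandin metabolites, had 521 and 665 counts in KO against 1091 and 1010 in WT (log2 fold change -0.95, SE 0.15, edgeR adjusted p = 0.0476). Neither was called with library size only or without either KO library, and Ptgr2 was also not called with upper quartile factors (edgeR adjusted p = 0.0509).

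The enzymes that trim cysteinyl leukotrienes differed in direction. Ggt1, a gamma-glutamyl transferase that converts leukotriene C4, had 767 and 1090 counts in KO against 1483 and 1543 in WT (log2 fold change -0.83, edgeR adjusted p = 0.0531). Ggt5, of the same family, went the other way, with 29 and 40 counts in KO against 20 and 10 in WT (log2 fold change 1.05, edgeR adjusted p = 0.254). Dpep1, the dipeptidase of the next step, had 3163 and 4083 counts in KO against 1589 and 1261 in WT (log2 fold change 1.21, edgeR adjusted p = 0.0532). Ggt1 and Dpep1 lay just outside the threshold. Their libraries did not overlap between genotypes, which held for 63.3% of all tested genes. DESeq2 called both Ggt1 and Dpep1, as did edgeR with no filter and with sex as a covariate. Ltc4s, the leukotriene C4 synthase that acts after Alox5, had 7 and 16 counts in KO and 4 and 5 in WT and did not pass the filter.

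On the prostaglandin side, Ptgs2, the inducible cyclooxygenase, had 207 and 48 counts in KO and 16 and 102 in WT. Its genotypes overlapped (log2 fold change 1.11, SE 1.06, edgeR adjusted p = 0.518), and the female library was the higher one in each. With sex as a covariate the log2 fold change was 1.17 (SE 0.26, edgeR adjusted p = 0.0552). Ptgs2 was thus not called in that fit, where 9.48% of all tested genes were. Akr1b3, an aldose reductase with prostaglandin F synthase activity, had 905 and 946 counts in KO and 426 and 656 in WT (log2 fold change 0.68, edgeR adjusted p = 0.0846). Cbr1, a carbonyl reductase that acts on prostaglandin E2 among other substrates, had 4035 and 4779 counts in KO and 2650 and 3308 in WT (log2 fold change 0.45, edgeR adjusted p = 0.0876). DESeq2 called both, and edgeR called Akr1b3 with no filter (adjusted p = 0.0409) and with sex as a covariate (adjusted p = 0.0433).

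Of 16 eicosanoid receptors and transporters, 11 passed the filter and edgeR called 0, with 3 higher and 2 lower at an unadjusted p under 0.05. That unadjusted level was reached by 30.5% of all tested genes. Ptgdr, a receptor of prostaglandin D2, the product of Hpgds, had 25 and 45 counts in KO, against 7 and 1 in WT (log2 fold change 2.93, SE 0.86, edgeR adjusted p = 0.106). It was called without WT replicate 1, where 1 WT count was left. The prostaglandin E2 receptor genes differed among themselves. Ptger1 had 57 and 113 counts in KO against 133 and 161 in WT (log2 fold change -0.92, edgeR adjusted p = 0.141), and Ptger3 had 19 and 46 in KO against 92 and 76 in WT (-1.52, edgeR adjusted p = 0.114). Ptger4, the most counted of these receptors, had 740 and 812 counts in KO and 831 and 817 in WT (-0.21, edgeR adjusted p = 0.297). Ptger2, which did not pass the filter, had 13 and 9 counts in KO and 5 and 5 in WT.

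Among transporters, Abcc4, which exports prostaglandins and other anions, had 453 and 488 counts in KO, against 132 and 227 in WT (log2 fold change 1.29, SE 0.23, edgeR adjusted p = 0.0532). It was called in 8 of 15 alternatives, among them DESeq2, limma-voom and edgeR with sex as a covariate (adjusted p = 0.0281). Abcc1, which exports leukotriene C4, had 695 and 759 counts in KO and 364 and 557 in WT (0.56, edgeR adjusted p = 0.114). Slco2a1, the prostaglandin uptake carrier, had 1645 and 2760 counts in KO and 2497 and 4075 in WT (-0.69, edgeR adjusted p = 0.171). In scaled level both KO libraries were above both WT libraries for Abcc4 and Abcc1, and below them for Slco2a1.

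Of 8 genes of the type 2 response around tuft cells, 4 passed the filter and edgeR called 0, with 2 higher at an unadjusted p under 0.05. That unadjusted level was reached by 30.5% of all tested genes. Il4ra, a subunit of the IL-4 and IL-13 receptors, had 2478 and 2288 counts in KO, against 687 and 1347 in WT (log2 fold change 1.15, edgeR adjusted p = 0.0868). Its partner Il13ra1 had 2715 and 2948 in KO and 1743 and 2337 in WT (0.37, edgeR adjusted p = 0.14). Retnlb, a goblet cell product induced by IL-13, had 1717 and 719 counts in KO and 225 and 593 in WT (1.54, edgeR adjusted p = 0.186). With sex as a covariate edgeR called Il4ra (log2 fold change 1.19, adjusted p = 0.0264) and Retnlb (1.49, adjusted p = 0.0244), and DESeq2 called Il4ra (adjusted p = 0.00413). The cytokine genes Il13 and Il4 were near 0 in both genotypes. Il13 had 3 and 2 counts in KO and 3 and 7 in WT, and Il4 had 0 and 0 in KO and 0 and 2 in WT.

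Leukocyte markers were present in all libraries. The 5 pan-leukocyte markers summed to 271 and 207 CPM in KO, against 148 and 199.6 CPM in WT; 0 of 5 were called by edgeR and 2 were higher at an unadjusted p under 0.05. The 14 macrophage and monocyte markers summed to 237 and 212 CPM in KO, against 138 and 199 CPM in WT. Of 13 tested, 3 rose and 0 fell, and 7 were higher and 1 lower at an unadjusted p under 0.05, with a median log2 fold change of 1.13. Over all tested genes edgeR called 3.61%, and 30.5% were at an unadjusted p under 0.05. The 10 neutrophil markers summed to 142 and 101.1 CPM in KO, and 43.3 and 149.8 CPM in WT. The libraries with the most and the fewest pan-leukocyte transcripts, KO replicate 1 and WT replicate 1, were also those with the most and the fewest Alox5ap. The part of leukocytes in Alox5ap, Alox5 and Ptgs1 was not tested.

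Hpgds is also known from mast cells, whose markers gave no call. The 12 markers summed to 98.1 and 103 CPM in KO and 108 and 107 CPM in WT, and Tpsab1 was at 0 in every library. Of 10 tested, edgeR called 0, with 0 at an unadjusted p under 0.05. Of the 10, 1 was higher and 3 lower in KO with no overlap in scaled level, where 63.3% of all tested genes did not overlap. The higher one was the mast cell protease gene Cma1 (25 and 39 counts in KO, 14 and 20 in WT; log2 fold change 0.79). The lower ones were the protease genes Cpa3 (56 and 64 counts in KO, 65 and 85 in WT; log2 fold change -0.43), Mcpt2 (581 and 522 in KO, 600 and 670 in WT; -0.31) and Mcpt4 (15 and 14 in KO, 15 and 19 in WT; -0.33). None of them, nor Cma1, was called by edgeR. Of the 2 most abundant, the mucosal mast cell protease gene Mcpt1 had 730 and 1068 counts in KO and 771 and 977 in WT (log2 fold change -0.08), and Kit had 614 and 815 in KO and 688 and 610 in WT (0.0052). The summed level was lower in both KO libraries, as for Hpgds, and the part of mast cells in the Hpgds counts was not tested. Fibroblast markers, highest in KO replicate 2, were also highest in the library with the most Dclk1, Alox5 and Ptgs1 counts. Their part in these counts was not tested, and without that library the 3 log2 fold changes are those given above.

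**Figure D4:**
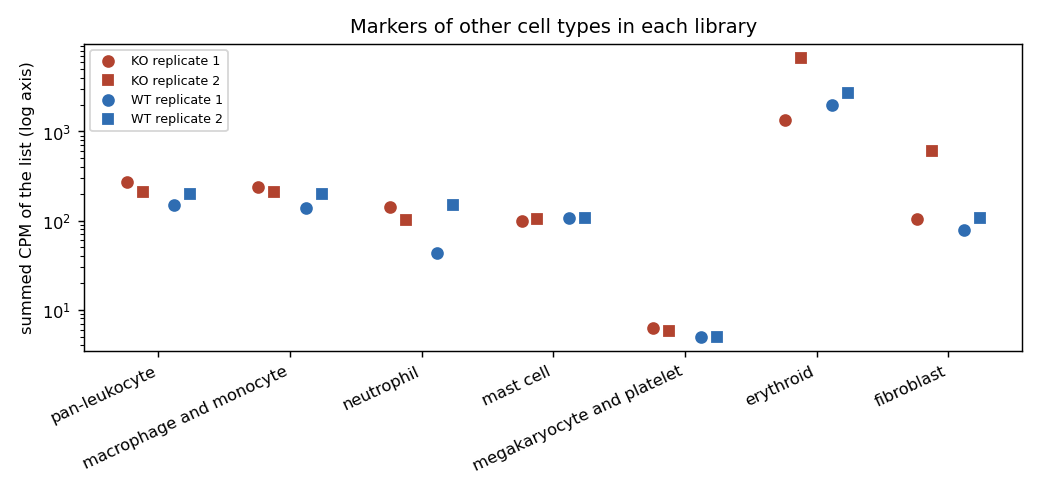
Summed CPM on a log axis of the markers of 7 other cell types in each library, KO (red) left of WT (blue), with circles for replicate 1 and squares for replicate 2. Mast cell markers lie at 98.1 to 108 CPM in all 4 libraries, whereas the fibroblast and erythroid markers are highest in KO replicate 2, at 610 and 6682 CPM.

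The 2 most abundant members by scaled level were Hpgds and Alox5ap, and their pattern over the 4 libraries was compared with that of all tested genes. The measure was the root mean square difference of log2 (CPM plus 0.5), centred on each gene's mean. The added 0.5 narrows the differences of genes with few counts. Nearest to Hpgds were C030014I23Rik (0.0239), 4930518I15Rik (0.0354) and Nrip3 (0.0363). Of these, C030014I23Rik had 19 and 40 counts in KO and 44 and 49 in WT. For 4930518I15Rik the counts were 1 and 8 in KO and 13 and 14 in WT, and for Nrip3 2 and 8 against 13 and 14. At so few counts their place depends on the added 0.5. Nearest to Alox5ap were Flt3 (0.0367), Dennd5a (0.0417) and Eif4ebp1 (0.0448). With 4 libraries many genes share a pattern, and 673 and 291 others lay within 0.2 of Hpgds and Alox5ap.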

How the data were processed

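The authors deposited whole-number counts per gene for 4 libraries, which they did not normalise, judged from the values. The tools STAR 2.4.2a, RSEM 1.2.29 and FastQC 0.11.2 and the build mm10 are listed, without roles, per the submitters' processing notes. No source used here gives the annotation, the strandedness or whether the counts are rounded estimates. Of the gene identifiers, 99.56% matched GENCODE M21 (GRCm38), the source of loci and exon lengths. The genotype label gave the groups, and replicate numbers follow accession order and pair no libraries. P-values measure the spread between these samples only, and the design leaves 2 residual degrees of freedom. Floors reflect counting error alone.

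The 14861 genes that passed filterByExpr were fitted with edgeR 4.0.16 (R 4.3.3; TMM, quasi-likelihood, legacy and robust options on; two-sided, Benjamini-Hochberg over all genes, threshold 0.05). The test was tried on simulated counts first. The 15 alternatives were other scaling factors, DESeq2 1.42.0, limma-voom (limma 3.58.1), other filters and options, omission of mitochondrial transcripts and their chromosome 1 copies, sex as a covariate and omission of each library. The members and lists were chosen with earlier results of these data known. Named are all members, called genes of each pathway list, up to 6 per list at an unadjusted p under 0.05, the 3 most abundant, and Pou2f3, Il25, Ltc4s and Ptgs2, with at most 2 abundant markers per cell type and the 3 genes nearest in pattern to each of 2 members. Chat, Il13, Il4, Tpsab1, Treml1, Ptger2, Ggt5, Cpa3, Mcpt2, Mcpt4, Cma1 and the genes that overlap members were named after their values were seen.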

Additional observations from a re-analysis of the deposited data

Results flagged for a closer look

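Dclk1, Trpm5 and Avil differed between KO and WT in opposite directions in the females and the males, each sex with 1 KO and 1 WT library. The log2 ratio of KO over WT (CPM plus 0.5) was -0.46 in females and 1.10 in males for Dclk1, 0.22 and -0.030 for Trpm5, and -0.28 and 0.25 for Avil. The difference between the sexes was not tested. KO replicate 2, the male KO library, had the most fibroblast and erythroid RNA, whose part in these values was not tested.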

How the results depend on the processing

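Over all genes 537 were called (255 higher, 282 lower). DESeq2 called 1927, a fit without a filter 1632 and sex as a covariate 1409, and omitting 1 library gave 0 to 2290. The split became 604 higher and 186 lower with library size only, which moved the median log2 fold change of all genes to 0.15 against -0.01, and 416 and 265 with upper quartile factors. The 0 came from edgeR when either KO library was left out; an unadjusted p under 0.05 was reached by 2257 genes without replicate 1 and by 1987 without replicate 2. Of the members 0 were called, 1 with sex as a covariate (Alox5ap) and 0 to 1 without a library (Gfi1b, without WT replicate 2).

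Of the other tuft cell genes 1 was called, against 0 with RLE factors and with the robust option off (7 at an unadjusted p under 0.05 each), 3 with library size only, 2 with upper quartile factors and with a CPM of at least 1 in 2 libraries, 6 with DESeq2, 4 without a filter, 5 with sex as a covariate and 0 to 5 without a library. Of the other eicosanoid genes 2 were called, both lower, against 7 with DESeq2, 6 without a filter, 6 with sex as a covariate and 0 to 9 without a library. With library size only the 2 called were Dpep1 and Abcc4, both higher. The causes were not tested.

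Signs turned when 1 library was left out for Dclk1 (-0.56 to 1.38, negative without KO replicate 2), Trpm5 (-0.47 to 0.72, negative without KO replicate 1 and, at -0.07, without WT replicate 1) and Ptgs2 (-0.46 to 2.86, negative without KO replicate 1). Avil became positive, at 0.15 with library size only, 0.050 with upper quartile factors and 0.0066 without mitochondrial transcripts, and ran from -0.19 to 0.19 when 1 library was left out. Gfi1b, Alox5ap, Alox5, Ptgs1 and Hpgds kept their sign in all 15 alternatives; the libraries did not overlap in these genes, so no omission of 1 library could turn it. Trpm5 did not pass the filter in the fit without mitochondrial transcripts, and neither Trpm5 nor Dclk1 passed a CPM of at least 1 in 2 libraries. No paired analysis was possible because the labels give no replicate numbers shared by the genotypes; sex, read from the data, was fitted as a covariate instead. Trpm5 and Dclk1 had 6 to 36 counts per library, and intervals for counting error were not computed.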
